A study of Mus musculus with 21 samples.

Results

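RNA of CD45-Ter119+CD71+ erythroid cells sorted from the spleens of mice with anemia was compared, gene by gene, with RNA of cells of the same sort from neonatal mice. All mice were C57BL/6, and each group held 3 libraries, so the comparison used 6 of the 21 libraries of the series. The other libraries held CD45+Ter119+CD71+ cells of both states, both fractions from tumor-bearing mice, and CD11b+Gr1+ cells (MDSC) from tumor-bearing mice. The members were all genes of the deposited table, of which 11195 were tested because 3 or more of the 18 Ter119+CD71+ libraries had a value no lower than 1. The labels give neither the way anemia was brought about, nor the age in days, nor the sex, and leave unsaid whether a group's libraries came from separate animals, so the p-values rest on a spread among libraries that may be technical only. Anemia, age and any other difference between the groups of mice cannot be told apart in this design. The extraction text in the labels mentions retinas although every tissue label says spleen. Of 16 listed retina genes 6 were in the table, with summed values out of the log of 1.02 to 1.36 in anemia and 1.03 to 1.16 in neonatal libraries. The 1 that was tested did not pass, but a comparison of the groups cannot show whether retina RNA was present.

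Ter119 is a surface antigen of erythroid cells from the proerythroblast stage on, CD71 is the transferrin receptor through which erythroblasts take up iron for haem, and CD45 is a leukocyte phosphatase that is lost as erythroblasts mature. In the mouse the spleen makes red cells around birth, when production is moving from the fetal liver to the bone marrow, and again in the adult under anemia, when erythropoietin expands a pool of splenic stress progenitors. Fetal and neonatal blood formation in the mouse carries a programme of RNA-binding proteins and growth genes (Lin28b, Igf2bp3, imprinted genes) that is switched off with age. KLF1 is the zinc finger activator of adult beta globin and of many red cell genes, and binds CACCC motifs, often beside sites of GATA1, the zinc finger factor on which the lineage depends.

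The sequence before the start site is shown for 3 genes on which the results turn, Klf1 and Apol11b among those higher in anemia and Slc2a1 among those lower. Each is the 250 bases upstream of the start site, 5' to 3' along the gene's own strand, from RefSeq on build GRCm38.p6. In the Klf1 and Slc2a1 sequences, capitals mark the CACCC motif and the GATA motif (AGATAA or TGATAA) on either strand. In the Apol11b sequence, capitals mark the core of the interferon-stimulated response element (GAAA, any 2 bases, GAAA) on either strand.
Klf1 (chr8:84901732-84901981, plus strand): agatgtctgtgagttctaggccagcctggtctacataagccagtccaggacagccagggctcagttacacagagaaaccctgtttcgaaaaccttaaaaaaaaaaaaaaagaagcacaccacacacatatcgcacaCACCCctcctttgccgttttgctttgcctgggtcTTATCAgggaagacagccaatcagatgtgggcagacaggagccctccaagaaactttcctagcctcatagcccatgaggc
Slc2a1 (chr4:119108495-119108744, plus strand): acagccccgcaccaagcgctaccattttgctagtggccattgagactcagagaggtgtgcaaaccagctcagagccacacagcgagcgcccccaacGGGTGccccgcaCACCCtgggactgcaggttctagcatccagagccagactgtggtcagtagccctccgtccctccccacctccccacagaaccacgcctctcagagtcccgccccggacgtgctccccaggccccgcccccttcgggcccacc
Apol11b (chr15:77643287-77643536, minus strand): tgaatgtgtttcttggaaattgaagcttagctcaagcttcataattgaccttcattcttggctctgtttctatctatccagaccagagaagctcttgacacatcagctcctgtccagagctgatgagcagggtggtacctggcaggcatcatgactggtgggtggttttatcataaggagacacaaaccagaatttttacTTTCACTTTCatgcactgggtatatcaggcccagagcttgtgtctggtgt
The Klf1 window held 1 GATA match, which starts 80 bases before the start site and reads TTATCA on the strand shown, and 1 CACCC match, with no overlap between them. The Slc2a1 window held 2 CACCC matches, 1 on each strand, and no match of the GATA motif. The Apol11b window held 1 match of the interferon element, which starts 50 bases before the start site. It also held 1 GATA match, which starts 83 bases before the start site, and 2 CACCC matches, all left in small letters. The Klf1 and Slc2a1 windows held 0 matches of the interferon element. Of 32851 RefSeq mouse promoters of the same length, 52.0% held CACCC, 16.6% held the GATA motif and 2.98% held the interferon element. A match describes letters in this window and not a site bound by a factor.

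Levels below are the deposited values after undoing their log2, in a unit not named in the sources used here, and a gene "listed at 0" had a blank in the table. Haemoglobin genes made up 41.0%, 35.2% and 11.2% of the summed values of anemia libraries 1, 2 and 3, against 37.6%, 39.2% and 27.5% in neonatal libraries 1, 2 and 3. Library 3 of either group therefore held the least haemoglobin RNA of its group, as did library 3 of the tumor CD45- (20.8%), tumor CD45+ (4.96%), anemia CD45+ (1.29%) and neonatal CD45+ (2.42%) cells, and in both groups it also stood apart across genes. Its Pearson correlation with its partners was 0.911 and 0.922 in the anemia group, where libraries 1 and 2 correlated at 0.974, and 0.934 and 0.923 in the neonatal group, where libraries 1 and 2 correlated at 0.965. Between 12301 and 12711 genes had a value in an anemia library, against 13049 to 13130 in a neonatal library. Tfrc, which encodes CD71, had 562, 613 and 849 in the anemia libraries, against 368, 326 and 1029 in the neonatal libraries, so the groups overlapped (adjusted p = 0.733 in limma). Ptprc, which encodes CD45, had 3.30, 5.50 and 2.47 in the anemia libraries, against 1.88, 1.72 and 3.22 in the neonatal libraries, and the groups overlapped as well (adjusted p = 0.567). In CD45+ cells Ptprc had 322 to 477 in anemia and 86.7 to 188 in neonatal libraries, so its level went with the sort in both states.

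Of the 11195 tested genes, 486 (4.34%) passed an adjusted p of 0.05 in limma. Of these, 106 (0.947% of those tested) were higher and 380 (3.39%) were lower in anemia, with at least a 2-fold difference for 86 and 323 of them on the log2(value + 1) scale. The median log2 difference over all tested genes was -0.01, and 1897 genes had an unadjusted p under 0.05. The libraries of the groups did not overlap for 102 of the 106 higher and 375 of the 380 lower genes, against 2625 (23.4%) of all tested genes. Genes were called on these same values, so a share above 23.4% is built in, and nothing is read from it. The naming rule given below asks for no overlap in its 12 largest differences each way, so separation adds no support for those genes. The plot of mean levels of all tested genes places the higher genes mostly at middle levels and many of the lower genes at the floor of the anemia group. Of the 380 lower genes 136 reached the level for testing only with the neonatal libraries, being at 1 or more in fewer than 3 of the other 12 Ter119+CD71+ libraries, against 502 (4.48%) of all tested genes. At that floor, 48 of the 380 were listed at 0 in all 3 anemia libraries, while none of the 106 higher genes was listed at 0 in all neonatal libraries. The split into higher and lower depended on the scaling, with 273 higher (34.9% of calls) and 509 lower under median-ratio scaling and 217 higher (37.7%) and 358 lower under quantile normalization, against 21.8% higher as deposited. Without anemia library 1, anemia library 2, neonatal library 1 or neonatal library 2 the calls numbered 233, 225, 212 and 269 in that order. The higher genes numbered 260 without neonatal library 3, and leaving out library 3 of both groups, chosen after the data were seen, gave 895 calls.

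**Figure D1:**
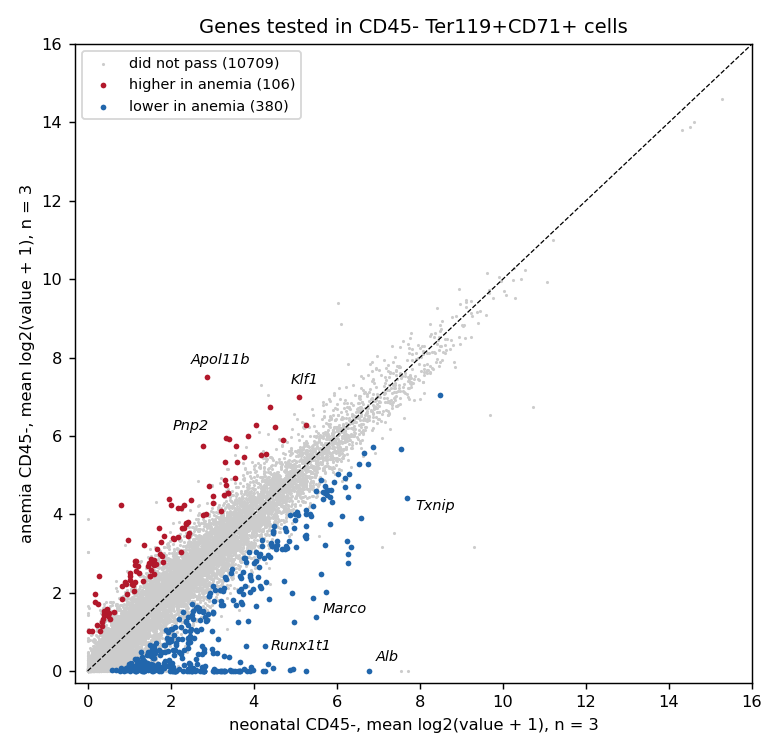
Mean log2(value + 1) of each tested gene in the 3 anemia (vertical axis) and the 3 neonatal CD45- libraries (horizontal axis), with 106 higher genes in red, 380 lower genes in blue and the others in grey; the dashed line marks equal levels. Apol11b, Pnp2 and Klf1 lie above the line, while Runx1t1, Marco and Alb lie near the floor of the anemia axis.

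For the genes that make a red cell, counts are read against the 4.34% of all tested genes that passed. All 4 adult globin genes overlapped between the groups, with log2 differences from -0.67 to -0.50. Hba-a1, an alpha globin whose reads may be shared with its near-identical copy Hba-a2, had 45282, 37496 and 8990.3 in the anemia libraries, against 48225, 49147 and 26022 in the neonatal libraries. Anemia library 3 was far below its partners, and without it the log2 difference of Hba-a1 was 0.06. The 4 embryonic globins were at 2.01 or below in every library of both groups, and the only one tested, Hbb-y, had 0.436, 1.16 and 0.460 in the anemia libraries, against 0.942, 0.796 and 0.413 in the neonatal libraries. In limma 0 of 13 haem synthesis genes passed, with 1 at an unadjusted p under 0.05 and a median log2 difference of 0.02. The iron list had 1 lower gene of 20 (Slc25a28, a mitochondrial iron carrier), the red cell membrane list 1 lower gene of 25 (Slc2a1) and the terminal maturation list 1 lower gene of 22 (Riok3, a kinase involved in erythroblast enucleation in the mouse). Slc25a28 had 2.25, 1.66 and 1.51 in the anemia libraries, against 8.80, 13.7 and 2.80 in the neonatal libraries, and its log2 difference was -1.55 ± 0.39 (SE, adjusted p = 0.0334). Riok3 had 51.5, 47.8 and 40.6 in the anemia libraries, against 92.4, 126 and 87.0 in the neonatal libraries, and its log2 difference was -1.10 ± 0.28 (adjusted p = 0.0317). Both were lower in every anemia library, but each call was lost without any 1 of the 3 anemia libraries and neonatal libraries 1 and 2, at adjusted p up to 0.184 for Slc25a28 and 0.153 for Riok3.

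**Figure D2:**
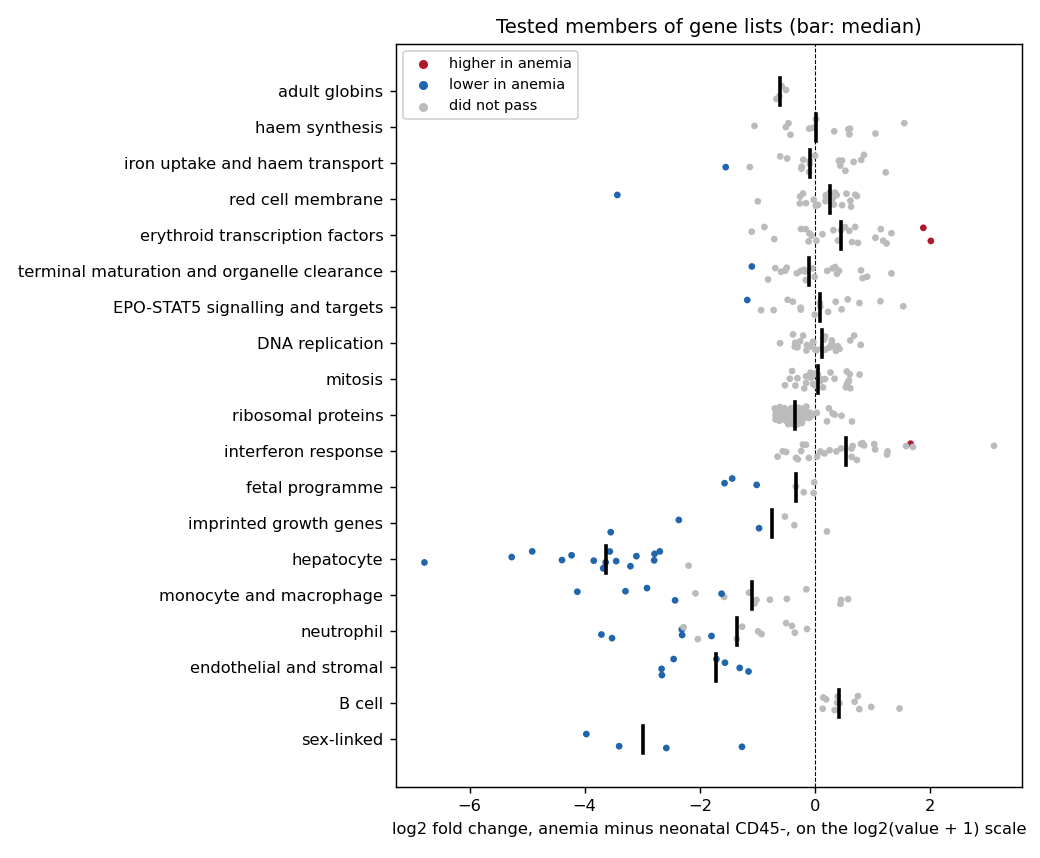
Log2 difference, anemia minus neonatal CD45- cells on the log2(value + 1) scale, of each tested member of 19 gene lists (points; red higher, blue lower, grey not past the test; bar, median). Haem synthesis and mitosis genes sit around 0, while Slc2a1 is the blue point at -3.43 in the red cell membrane list; most hepatocyte genes were tested only because neonatal libraries held them.

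Among the erythroid transcription factors 2 rose. Of 25 tested factors, Klf1 and Lyl1 were higher and none was lower, against 0.947% higher over all tested genes, with a list median of 0.45 against -0.01 over all tested genes. Klf1 had 119, 117 and 140 in the anemia libraries, against 29.7, 29.1 and 42.5 in the neonatal libraries. Every anemia library thus stood above every neonatal library by a wide margin, with means of 126 ± 12.7 and 33.8 ± 7.60 (SD, n = 3 each). Its log2 difference was 1.88 ± 0.38 (SE, adjusted p = 0.00815 in limma), and it passed without each library in turn (adjusted p up to 0.0457). Lyl1, a basic helix-loop-helix partner in the complex of TAL1 and LMO2, had 51.8, 52.2 and 21.9 in the anemia libraries, against 8.63, 5.10 and 15.7 in the neonatal libraries. Its groups did not overlap, though anemia library 3 and neonatal library 3 lay close, and the log2 difference was 2.01 ± 0.45 (adjusted p = 0.0174). That call was lost without anemia library 1, anemia library 2, neonatal library 1 or neonatal library 2 (adjusted p up to 0.102). Gata1, named after its values were seen, had 58.5, 53.8 and 52.8 in the anemia libraries, against 41.1, 26.1 and 43.6 in the neonatal libraries, and did not pass (adjusted p = 0.592). The list held 3 higher factors without anemia library 3, 3 without neonatal library 3 and 5 without both, against 2 with all libraries. Among 18 genes linked to the switching of globins, Klf1 was the only one to pass, and Bcl11a, the repressor of fetal globin in humans, also named after its values were seen, had 3.55, 3.89 and 12.7 in the anemia libraries, against 0.976, 1.67 and 3.36 in the neonatal libraries (adjusted p = 0.234).

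**Figure D3:**
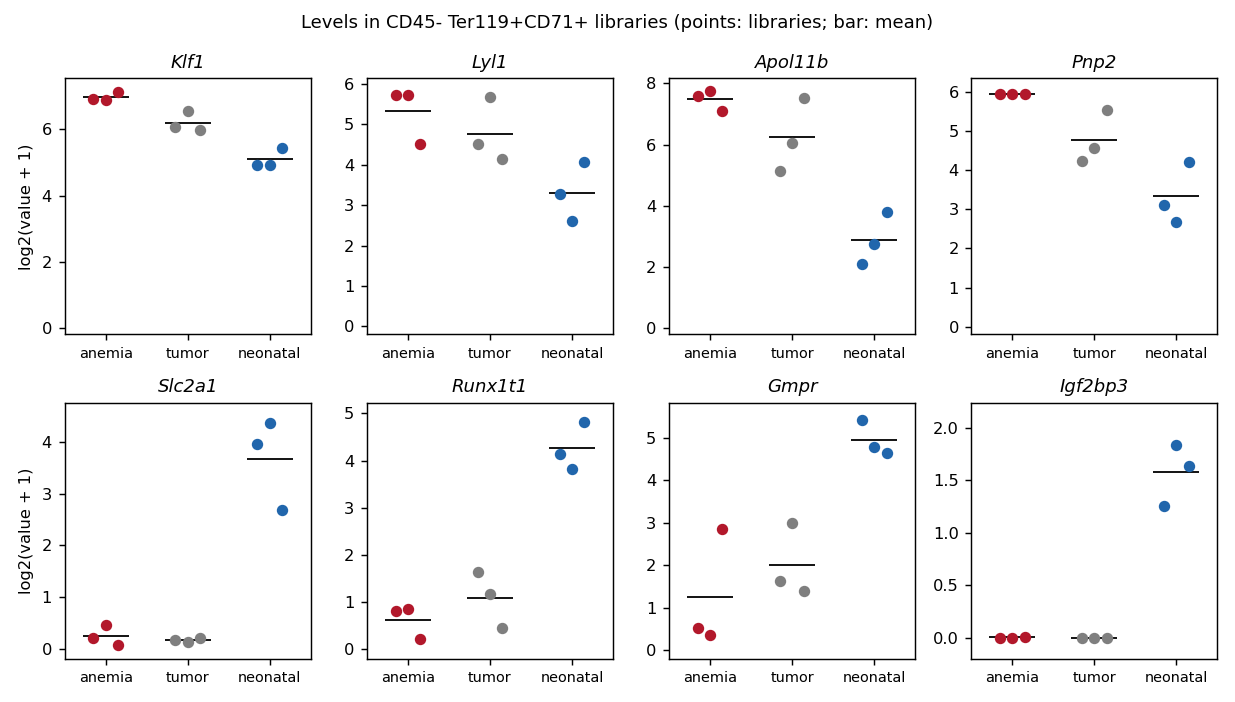
Levels of 8 genes as log2(value + 1) in the 3 CD45- libraries of anemia, tumor-bearing and neonatal mice (points, libraries; bar, mean). The top row shows genes higher in anemia, with Klf1 at 117 to 140 out of the log in anemia and 29.1 to 42.5 in neonatal libraries, and the bottom row genes lower in anemia, with the tumor libraries near the anemia libraries for Slc2a1 and Igf2bp3.

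The largest difference among the higher genes that the naming rule admits was that of Apol11b, a member of the apolipoprotein L family. It had 194, 216 and 138 in the anemia libraries, against 3.26, 5.77 and 12.9 in the neonatal libraries. All anemia libraries were far above the neonatal ones, and the log2 difference was 4.61 ± 0.84 (SE, adjusted p = 0.00379 in limma). Its relative Apol11a had 22.5, 24.4 and 10.4 in the anemia libraries, against 0.566, 0.324 and 1.61 in the neonatal libraries (log2 difference 3.43 ± 0.51, adjusted p = 5.7e-04). The members of this family are alike in sequence, so reads may be divided between them. The interferon response list had 1 higher gene of 30 and none lower, with a median of 0.54, and 3 higher without anemia library 3, 2 without neonatal library 3 and 3 without both. The gene that passed with all libraries, Oas1a, an antiviral oligoadenylate synthetase, had 4.63, 12.2 and 3.67 in the anemia libraries, against 1.46, 1.30 and 0.949 in the neonatal libraries (log2 difference 1.66 ± 0.39, adjusted p = 0.0214). The groups did not overlap for Oas1a, but its call was lost without anemia library 2, neonatal library 1 or neonatal library 2 (adjusted p up to 0.1197).

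Purine nucleoside phosphorylase, which splits inosine and guanosine in purine salvage, was higher in anemia in both of its mouse genes. Pnp2 had 60.8, 60.5 and 60.4 in the anemia libraries, against 7.62, 5.41 and 17.6 in the neonatal libraries (log2 difference 2.61 ± 0.45, adjusted p = 0.00222 in limma). Pnp had 108, 108 and 103 in the anemia libraries, against 10.98, 16.1 and 43.6 in the neonatal libraries (log2 difference 2.36 ± 0.47, adjusted p = 0.00693). The anemia libraries were nearly level with each other in both genes while neonatal library 3 was the highest of its group. Without neonatal library 1 the call of Pnp was lost at an adjusted p of 0.0533, and since the genes are close copies their values may not be separate. Gmpr, which turns guanosine monophosphate back into inosine monophosphate, went the other way. It had 0.449, 0.291 and 6.26 in the anemia libraries, against 42.1, 26.9 and 24.3 in the neonatal libraries (log2 difference -3.71 ± 0.55, adjusted p = 5.7e-04). Anemia library 3 was well above its partners but still below every neonatal library. Gmpr was named after its values were seen.

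Other higher genes encoded enzymes and membrane or nuclear proteins. Tbxas1, thromboxane A synthase, had 22.8, 19.3 and 18.2 in the anemia libraries, against 3.52, 1.79 and 3.57 in the neonatal libraries (log2 difference 2.44 ± 0.37, adjusted p = 8.0e-04 in limma). The groups were well apart, and the gene passed without each library in turn. St3gal6, a sialyltransferase, had 47.9, 48.9 and 87.9 in the anemia libraries, against 7.92, 7.21 and 15.5 in the neonatal libraries (log2 difference 2.49 ± 0.51, adjusted p = 0.00847), and likewise passed each time (adjusted p up to 0.0497). Pdzk1ip1, a small membrane protein of kidney epithelium, had 70.5, 70.0 and 28.5 in the anemia libraries, against 7.02, 2.25 and 11.6 in the neonatal libraries (log2 difference 2.94 ± 0.63, adjusted p = 0.0118). Its call was lost without anemia library 1, anemia library 2 or neonatal library 2 (adjusted p up to 0.0736). The remaining 4 of the 12 largest higher genes were Aldh1a1, which makes retinoic acid, Sp100, a protein of nuclear bodies, Tinagl1, a matrix protein, and Pim2, a survival kinase. Their log2 differences were 2.14 ± 0.50 for Aldh1a1, 2.22 ± 0.52 for Sp100, 2.19 ± 0.57 for Tinagl1 and 1.98 ± 0.46 for Pim2. The naming rule itself asks for groups that do not overlap, and all 4 calls were lost without anemia library 1, anemia library 2, neonatal library 1 or neonatal library 2, at adjusted p up to 0.102 for Aldh1a1, 0.121 for Sp100, 0.161 for Tinagl1 and 0.109 for Pim2. Plcl2, a phospholipase C-like protein named after its values were seen, had 93.8, 84.0 and 51.6 in the anemia libraries, against 19.9, 12.1 and 43.4 in the neonatal libraries (log2 difference 1.71 ± 0.35, adjusted p = 0.0088). It did not overlap, and its call was lost without anemia library 1 or neonatal library 2 (adjusted p up to 0.0533).

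Among the lower genes, Slc2a1 stood out in the membrane and glycolysis lists. It encodes GLUT1, the glucose transporter that mouse red cells carry around birth and that is lost from adult mouse red cells. It had 0.145, 0.374 and 0.0458 in the anemia libraries, against 14.7, 19.6 and 5.43 in the neonatal libraries. Every anemia library was under 1, and the lowest neonatal library was again library 3. The log2 difference was -3.43 ± 0.36 (SE, adjusted p = 1.4e-05 in limma), and the gene passed without each library in turn. In CD45+ cells Slc2a1 had 12.2, 13.0 and 13.8 in anemia, against 11.1, 7.22 and 6.12 in neonatal libraries, a log2 difference of 0.65 ± 0.36. The difference was thus unlike in the CD45- and CD45+ cells (interaction -4.09 ± 0.51, adjusted p = 1.8e-04). In the CD45- cells of tumor-bearing mice it had 0.127, 0.0899 and 0.156, all at the level of the anemia libraries. The other 18 glycolysis genes did not pass, and the list median was -0.13.

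Genes of the fetal programme included 3 that were lower in anemia. Of 10 listed genes 7 were tested, 4 of which reached the level for testing only with neonatal libraries, so nothing is read from the number that passed. Igf2bp3, which binds the Igf2 messenger RNA, was listed at 0 in anemia libraries 1 and 2 and had 0.0081 in anemia library 3, against 1.39, 2.58 and 2.10 in the neonatal libraries (log2 difference -1.57 ± 0.26, adjusted p = 0.00176 in limma). Lin28b, which blocks the processing of let-7 microRNAs, was listed at 0 in the same 2 anemia libraries and had 0.0196 in library 3, against 0.673, 1.30 and 1.18 in the neonatal libraries (log2 difference -1.01 ± 0.17, adjusted p = 0.00226). Both were near the floor in anemia and low in neonatal CD45- cells, whereas Igf2bp3 had 17.1, 20.9 and 16.1 in neonatal CD45+ cells. Plag1, a zinc finger activator of Igf2, had 0.936, 0.898 and 1.31 in the anemia libraries, against 2.47, 7.11 and 5.01 in the neonatal libraries (log2 difference -1.44 ± 0.28, adjusted p = 0.00662, and 0.0737 in a fit of the 6 libraries alone). Hmga1, a chromatin protein of growing cells, had 3.16, 2.64 and 12.1 in the anemia libraries, against 4.82, 9.96 and 5.20 in the neonatal libraries, with overlapping groups (adjusted p = 0.782). Lin28a, Hmga2 and Arid3a did not pass either. Igf2bp1, Igf2bp2 and Sox17 did not reach the level for testing, with no value above 0.508 in the CD45- libraries of these groups.

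Imprinted growth genes are high in fetal tissues and mostly silenced after birth. The table held 13 of them, of which 6 were tested; 4 of the 6 reached the level for testing only with neonatal libraries, so the 3 that fell describe those genes and not the list. Mest had 0.0299, 0.0638 and 0.118 in the anemia libraries, against 3.68, 4.38 and 5.67 in the neonatal libraries (log2 difference -2.37 ± 0.17, adjusted p = 2.6e-07 in limma). Igf2, a fetal growth factor, had 0.0167 in anemia library 1 and was listed at 0 in the others, against 10.6, 5.33 and 21.2 in the neonatal libraries (log2 difference -3.55 ± 0.39, adjusted p = 2.6e-05). Peg10, a retrotransposon-derived gene, had 0.107, 0.0508 and 0.116 in the anemia libraries, against 1.23, 0.695 and 1.60 in the neonatal libraries (log2 difference -0.97 ± 0.17, adjusted p = 0.00334). The groups were well apart for all 3. Igf2 and Peg10 were highest in neonatal library 3 and lowest in neonatal library 2, the order of the summed hepatocyte markers given below, whose part in these results was not tested.

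Several lower genes outside these lists had levels well above the floor in neonatal cells, and those given here were named after their values were seen. Runx1t1, a corepressor of the ETO family, had 0.767, 0.812 and 0.157 in the anemia libraries, against 16.6, 13.1 and 27.4 in the neonatal libraries. No anemia library reached 1, and the log2 difference was -3.63 ± 0.31 (SE, adjusted p = 1.6e-06 in limma). In neonatal CD45+ cells Runx1t1 had 2.25, 2.22 and 1.04, so that within neonatal mice it was higher in every CD45- library. Sparc, a secreted matrix protein, had 0.238, 0.406 and 0.229 in the anemia libraries, against 9.43, 7.98 and 11.9 in the neonatal libraries (log2 difference -3.05 ± 0.22, adjusted p = 3.2e-07). Dstn, an actin-depolymerising protein, had 4.14, 4.59 and 16.4 in the anemia libraries, against 107, 112 and 35.9 in the neonatal libraries (log2 difference -3.27 ± 0.50, adjusted p = 8.2e-04). For Dstn library 3 of each group lay nearer to the other group than its partners did. Txnip, a brake on glucose uptake and on thioredoxin, had 21.6, 26.3 and 14.96 in the anemia libraries, against 372, 287 and 81.0 in the neonatal libraries (log2 difference -3.27 ± 0.51, adjusted p = 0.00106). All 4 genes kept their call without each library in turn. Runx1t1 and Sparc had the same order in the neonatal libraries as the summed hepatocyte markers, while Dstn and Txnip were lowest in neonatal library 3, where those markers were highest.

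Genes linked to stress erythropoiesis came next. Of 21 tested genes of the BMP, SCF, hedgehog and glucocorticoid pathways, 3 fell and none rose, with a median of -0.42, against 3.39% lower and 0.947% higher over all tested genes. Per1, a clock gene induced by glucocorticoids, had 3.74, 5.24 and 4.85 in the anemia libraries, against 99.9, 67.3 and 15.9 in the neonatal libraries (log2 difference -3.13 ± 0.58, adjusted p = 0.00426 in limma). Its level was uneven within the neonatal group, lowest in library 3, yet stayed above every anemia library. Id3, an inhibitor of helix-loop-helix factors induced by BMP, was listed at 0 in anemia library 1 and had 0.165 and 0.0689 in the others, against 2.75, 2.01 and 2.83 in the neonatal libraries (log2 difference -1.71 ± 0.24, adjusted p = 4.3e-04, and 0.0534 with a pseudocount of 5). Sgk1, a kinase induced by glucocorticoids, had a log2 difference of -1.54 ± 0.37 (adjusted p = 0.0259) and lost its call without anemia library 1, anemia library 2 or neonatal library 1 (adjusted p up to 0.139). Nr3c1, the glucocorticoid receptor, and Kit, the receptor of SCF, both named after their values were seen, did not pass, at log2 differences of -0.08 ± 0.25 and -0.06 ± 0.49.

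Of 17 genes of erythropoietin signalling, 1 fell and none rose, close to the 3.39% lower and 0.947% higher over all tested genes. Jak2, the kinase of the erythropoietin receptor, had 22.2, 22.1 and 22.7 in the anemia libraries, against 40.7, 67.3 and 50.4 in the neonatal libraries (log2 difference -1.18 ± 0.28, adjusted p = 0.0239 in limma). It did not overlap, yet its call was lost without anemia library 1, anemia library 2 or neonatal library 2 (adjusted p up to 0.126). Epor, the receptor itself, had 63.2, 63.4 and 25.1 in the anemia libraries, against 48.8, 64.7 and 54.2 in the neonatal libraries (adjusted p = 0.886). Cish, a feedback inhibitor that STAT5 induces, had 9.41, 8.53 and 6.14 in the anemia libraries, against 4.15, 0.967 and 1.89 in the neonatal libraries. All anemia libraries were above the neonatal ones for Cish, but the log2 difference of 1.53 ± 0.45 missed the threshold (adjusted p = 0.068). Fam132b, which encodes erythroferrone, a hormone that lowers hepcidin, had 8.07, 12.9 and 20.6 in the anemia libraries, against 7.29, 3.38 and 6.05 in the neonatal libraries, again without overlap and without a call (adjusted p = 0.245). Pim1, a survival kinase that STAT5 induces, had 151, 100.2 and 114 in the anemia libraries, against 252, 284 and 172 in the neonatal libraries, also without overlap but lower in anemia, and did not pass (log2 difference -0.94 ± 0.41, adjusted p = 0.250). Groups that do not overlap were found for 23.4% of all tested genes. Bcl2l1, Stat5a, Stat5b, Pim3, Socs1, Socs2, Socs3, Bcl2l11, Podxl, Osm, Tnfrsf13c and Trib3 did not pass.

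The other stress and response lists are read against the same 4.34% of all tested genes. In the hypoxia list 2 of 14 genes fell. Epas1, which encodes HIF2alpha, was listed at 0 in anemia library 1 and had 0.0717 and 0.0229 in the others, against 2.03, 1.79 and 3.54 in the neonatal libraries (log2 difference -1.71 ± 0.18, adjusted p = 1.4e-05 in limma). The neonatal levels of Epas1 were low and followed the order of the summed hepatocyte markers given below, whose part in this result was not tested. Kdm3a, a histone demethylase induced by hypoxia, had 23.04, 18.9 and 17.95 in the anemia libraries, against 54.5, 59.7 and 38.1 in the neonatal libraries (log2 difference -1.29 ± 0.28, adjusted p = 0.0145), and lost its call without anemia library 2, neonatal library 1 or neonatal library 2 (adjusted p up to 0.0745). Neither gene overlapped between the groups. Mt1, a metallothionein and the only 1 of 26 antioxidant genes to pass, had 9.71, 8.64 and 6.77 in the anemia libraries, against 54.0, 30.2 and 84.5 in the neonatal libraries (log2 difference -2.50 ± 0.52, adjusted p = 0.00889). Its neonatal levels again followed the order of the summed hepatocyte markers, whose part in this result was not tested, and its call was lost with quantile normalization (adjusted p = 0.0502) and with library 3 of both groups left out (log2 difference -2.03, adjusted p = 0.0657). Mthfd2, a mitochondrial folate enzyme, was the 1 higher gene of 21 in the integrated stress response list, Hsph1, a heat shock protein, the 1 of 12 in the heat shock list, and H2-Q4, a class I molecule, the 1 of 17 in the MHC class I list. Their log2 differences were 1.38 ± 0.35 for Mthfd2, 1.92 ± 0.47 for Hsph1 and 1.22 ± 0.29 for H2-Q4. Each of these 3 calls was lost in part of the fits that left out 1 library. Mthfd2 lost it without any 1 of the anemia libraries and neonatal libraries 1 and 2 (adjusted p up to 0.180), while its list held 3 higher genes without neonatal library 3 and 2 without library 3 of both groups. Hsph1 lost it without anemia library 3, neonatal library 1 or neonatal library 2 (up to 0.114), and H2-Q4 without any 1 of anemia libraries 2 and 3 and neonatal libraries 1 and 2 (up to 0.111). Of 18 immediate early genes 2 fell, Zfp36 and Jund, both unstable: Zfp36 was lost without anemia library 1, anemia library 3 or neonatal library 1 (up to 0.125), and Jund, a gene of a single exon, had 36.1, 0 and 17.97 in the anemia libraries, against 123, 117 and 35.3 in the neonatal libraries, with overlapping groups, and was lost without anemia library 2, neonatal library 1 or neonatal library 2 (up to 0.179).

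For the machinery of growth the counts are set beside the 4.34% of all tested genes that passed, which would give few calls in lists of this size. In limma 0 of 31 DNA replication genes passed, with 2 at an unadjusted p under 0.05 and a median of 0.12, and 0 of 30 mitosis genes, with 3 at that level and a median of 0.06. Mki67, a marker of dividing cells named after its values were seen, had 1185, 1044 and 798 in the anemia libraries, against 908, 940.0 and 1147 in the neonatal libraries, with overlapping groups. Of 77 mitochondrial ribosomal protein genes and 75 respiratory chain genes 0 passed, with 3 of each at an unadjusted p under 0.05 and medians of 0.22 and 0.02. None of 80 cytosolic ribosomal protein genes passed with all libraries, and 0 had an unadjusted p under 0.05, at a median of -0.36. Without anemia library 3, 36 of them were lower and none higher, and without library 3 of both groups 45 were lower.

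Markers of other cell types were detected in the neonatal libraries and made up a part of the lower genes. Of the 380 lower genes 33 stood in a marker list of another cell type, which is 8.68%, against 101 (0.902%) of all tested genes. Of the 101, 15 hepatocyte, 5 endothelial and stromal and 2 macrophage markers reached the level for testing only with neonatal libraries. Nothing is read from the 8.68% for that reason. In bulk RNA, fewer cells of a type and less RNA per cell cannot be told apart. Of 17 tested hepatocyte markers 16 fell, but 15 of the 17 reached the level for testing only with neonatal libraries, so the summed levels describe the list better. The summed levels of the 18 markers in the table were 1.19 to 4.82 in anemia libraries, where 12 to 16 of them were listed at 0, against 262, 167 and 1037 in neonatal libraries 1, 2 and 3. Alb, serum albumin, was listed at 0 in all anemia libraries and had 72.3, 52.3 and 342 in the neonatal libraries (adjusted p = 1.6e-06 in limma). Afp, the fetal form of albumin, had 0.0382, 0.0389 and 0.00859 in the anemia libraries, against 21.1, 15.6 and 80.1 in the neonatal libraries. Both were several times higher in neonatal library 3 than in its partners. Besides these, the 12 largest lower genes included Ahsg, Apoa1, Serpina1b, Fabp1 and Apoa2, secreted or lipid-binding proteins of hepatocytes, and Marco, a scavenger receptor of macrophages. Apoc1, an apolipoprotein outside the hepatocyte list, was another, with neonatal means of 31.6 in CD45- and 106 in CD45+ libraries. Stfa1 of granulocytes, which belongs to a family of near-identical stefin A genes, and the Y-linked Eif2s3y were also among the 12.

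**Figure D4:**
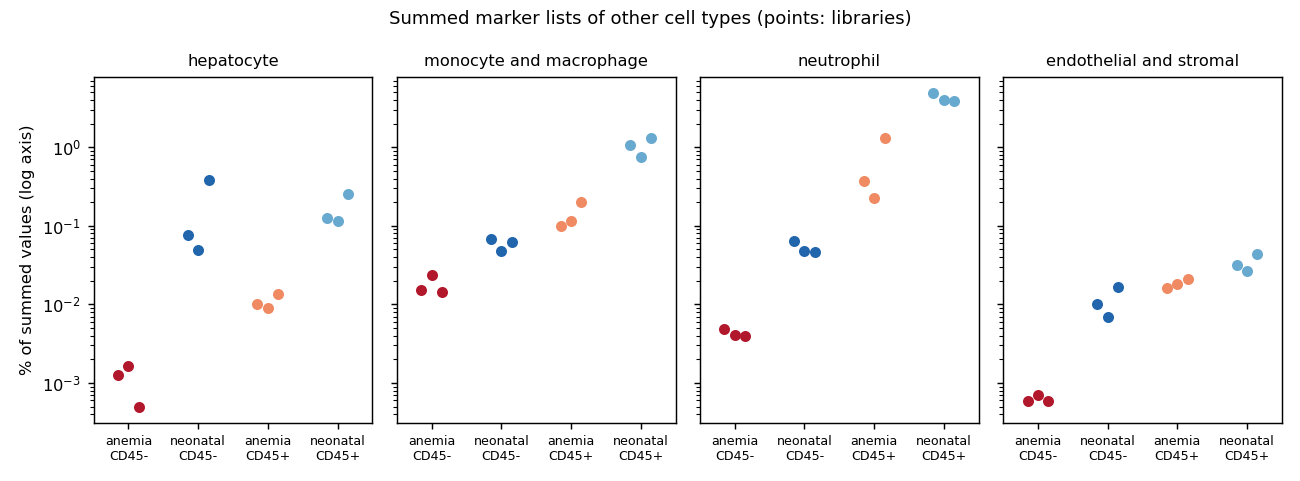
Summed levels of 4 marker lists as a percentage of each library's summed values, on a log axis, in CD45- and CD45+ libraries (points). The hepatocyte list holds 0.000493% to 0.00162% in anemia and 0.0491% to 0.381% in neonatal CD45- libraries, and each other list is likewise lower in all anemia CD45- libraries than in all neonatal CD45- libraries.

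Part of the macrophage and granulocyte markers were lower in anemia as well. Of 16 tested macrophage markers 5 fell (Marco, Clec4f, Cd5l, Timd4 and C1qb), against 3.39% lower over all tested genes. Of the 16, 2 reached the level for testing only with neonatal libraries, and 3 had a positive log2 difference without passing. The summed macrophage list had 34.9 to 70.2 in anemia libraries, against 161 to 234 in neonatal libraries. Marco had 1.54, 2.43 and 0.980 in the anemia libraries, against 45.2, 41.4 and 46.2 in the neonatal libraries (log2 difference -4.13 ± 0.35, adjusted p = 1.6e-06 in limma). Clec4f, a lectin of Kupffer cells, was listed at 0 in all anemia libraries and had 16.8, 10.4 and 3.66 in the neonatal libraries. In neonatal CD45+ cells Marco had 554, 578 and 959 and Clec4f 220, 130 and 97.9. Of 15 tested neutrophil markers 5 fell (S100a8, S100a9, Ltf, Camp and Lcn2), beside the same 3.39% over all tested genes. The summed neutrophil list had 9.48 to 15.2 in anemia libraries, against 125 to 221 in neonatal libraries. S100a8 had 3.72, 2.52 and 3.05 in the anemia libraries, against 67.1, 50.9 and 41.7 in the neonatal libraries, and 139, 70.2 and 11.95 in the CD45- libraries of tumor-bearing mice. Timd4 and S100a9 lost their calls without any 1 of anemia libraries 1 and 2 and neonatal libraries 1 and 2 (adjusted p up to 0.0902 for Timd4 and 0.0777 for S100a9), and 3 macrophage and 3 neutrophil markers were lower in each of these fits. The table held 13 endothelial and stromal markers, of which 7 were tested, and 5 of these reached the level for testing only with neonatal libraries, so nothing is read from the number that passed. Cdh5, the cadherin of endothelial junctions, had 0.0400, 0.105 and 0.0527 in the anemia libraries, against 6.92, 5.87 and 4.61 in the neonatal libraries. All 7 passed as lower with all libraries, and 4 did without any 1 of the neonatal libraries. In limma 0 of 12 B cell, 0 of 16 T and NK cell, 0 of 9 megakaryocyte and 0 of 8 mast cell markers passed, with 0, 1, 2 and 1 of them at an unadjusted p under 0.05. Their log2 differences were positive for 12, 12, 3 and 2 of them in that order. The summed B cell list had 11.1 to 50.8 in anemia libraries, against 11.1 to 20.9 in neonatal libraries, so the groups overlapped.

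The lower genes were divided in where neonatal mice had them highest. Of the 380 lower genes 183 (48.2%) had a higher mean in neonatal CD45+ than in neonatal CD45- libraries, against 75.4% of all tested genes, and 72 of them were over 4 times higher there. The other 197, which include Runx1t1 and Slc2a1, had a neonatal CD45- mean at least as high as that of CD45+ cells. The neonatal CD45- values by which genes were called lower also enter this comparison. A share under 75.4% is therefore built in, and nothing is read from it. Of the 106 higher genes 25 had a higher mean in anemia CD45+ than in anemia CD45- libraries, and 81 did not. The anemia CD45- values enter that count in the same way. No share over all tested genes is given for the 72 or the 25, so they only describe these genes. Klf1 had 19.8, 21.7 and 5.99 in anemia CD45+ libraries, against 1.56, 3.24 and 2.41 in neonatal CD45+ libraries, with a log2 difference of 2.16 ± 0.38. The part of other cells in the lower genes was not tested.

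The 4 tested genes of the Y chromosome were lower in anemia, and all 4 reached the level for testing only with neonatal libraries. Ddx3y, an RNA helicase, had 0.0685 in anemia library 1 and was listed at 0 in the others, against 9.37, 12.1 and 8.28 in the neonatal libraries (log2 difference -3.40 ± 0.19, adjusted p = 6.3e-09 in limma). Eif2s3y, a translation factor subunit, had 0.0251 and 0.0226 in anemia libraries 1 and 2 and was listed at 0 in anemia library 3, against 11.9, 14.2 and 19.6 in the neonatal libraries. The CD45- libraries of tumor-bearing mice were at 0.0152 or below for both genes. The summed level of the 4 genes was 0.160 at most in anemia libraries and 25.8 at least in neonatal libraries. The labels give no sex, these genes went with the group, and sex and status cannot be told apart.

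The CD45- libraries of tumor-bearing mice were set beside both groups as a description. Their mean lay on the anemia side of the midpoint for 301 of the 380 lower genes (79.2%), against 64.8% of all tested genes with a lower mean in anemia. For the higher genes this held for 61 of 106 (57.5%), against 38.3% of all tested genes with a higher mean in anemia. Of the 380 lower genes 136 reached the level for testing only with neonatal libraries, against 502 (4.48%) of all tested genes. That rule keeps such genes under 1 in most other libraries, tumor libraries among them, so nothing is read from the 79.2%. The anemia and neonatal values by which genes were called also set the midpoint, so nothing is read from the 57.5% either. Klf1 had 65.7, 92.6 and 62.8 in the tumor libraries, between the groups. Runx1t1 had 2.13, 1.25 and 0.377, Gmpr 2.09, 6.96 and 1.64, and Igf2bp3 was listed at 0 in all 3. Per1 had 87.6, 26.3 and 14.7, so that tumor library 3 lay just under the lowest neonatal library and the others within the neonatal range, and Apol11b spread from 34.5 through 66.1 to 183.

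The difference between anemia and neonatal mice was unlike in CD45- and CD45+ cells for 776 genes (6.93% of those tested) in a test of the interaction. Among these were 94 of the 380 lower and 13 of the 106 higher genes. The CD45- difference by which those genes were called is part of the interaction. A share above 6.93% is therefore built in, and nothing is read from it. Without CD45+ libraries 1 of either state or 2 of either state the interaction gave 429 to 502 genes, and it gave 349 with a pseudocount of 0.1 and 1073 without a filter on low values. Tbxas1 was higher in anemia CD45- cells and had 7.35, 6.13 and 4.63 in anemia CD45+ cells, against 19.1, 13.5 and 17.4 in neonatal CD45+ cells (interaction 3.78 ± 0.53, adjusted p = 4.3e-04 in limma). Per1 and Txnip fell in CD45- cells and had log2 differences of 0.19 ± 0.58 and -0.53 ± 0.51 in CD45+ cells.

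**Figure D5:**
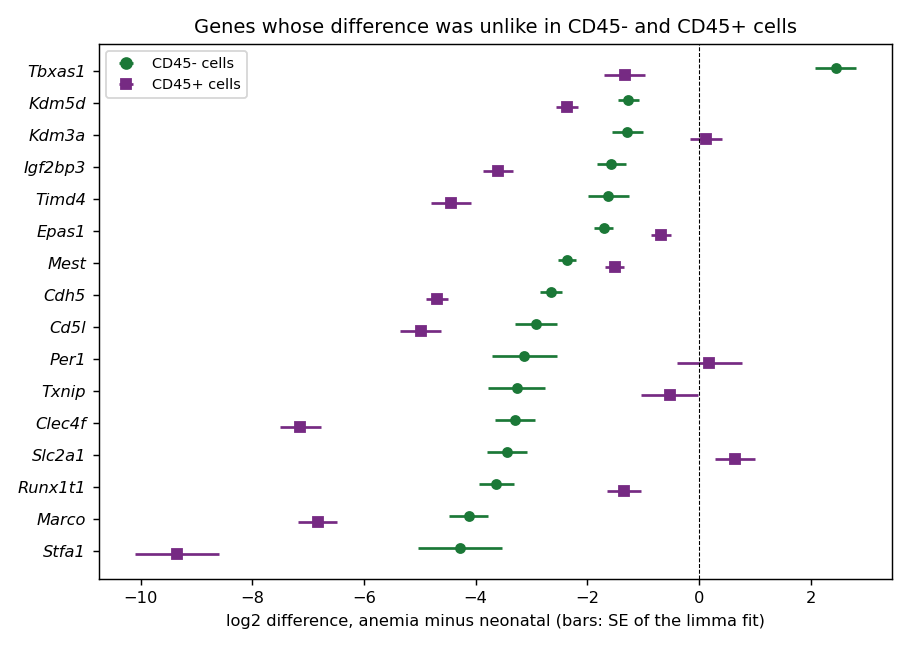
Log2 difference, anemia minus neonatal, in CD45- (green circles) and CD45+ cells (purple squares) for 16 named genes that passed the test of the interaction, with the SE of the limma fit as bars. Tbxas1 is above 0 in CD45- and below 0 in CD45+ cells, and Slc2a1 is at -3.43 in CD45- and 0.65 in CD45+ cells.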

How the data were processed

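Per the submitters' processing notes, the aligner was Bowtie 0.12.2 and the genome build mm8. The authors deposited log2 expression values per gene, 1 column per library. The scale behind the log, the quantification tool and the read counts are not given in the sources used here, so no counting error could be computed and depth is unknown. The table held 14273 genes and 23668 blank cells (7.90%), taken as 0. Date-like entries stood in place of 22 symbols, which are left unnamed.

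The log2 was undone, a pseudocount of 1 added and log2 taken again. No further scaling was applied. The 11195 genes at 1 or more in any 3 of 18 Ter119+CD71+ libraries were fitted in limma 3.58.1 under R 4.3.3, with statmod 1.5.0 and the trend and robust options, using group means and no covariate. Tests were two-sided, with Benjamini-Hochberg adjustment over all of these genes at 0.05. The interaction is the CD45- difference minus the CD45+ difference. The test was tried on simulated data of 9194 genes, some of which were given known changes. It called 76.3% of 80 genes changed by 2 and 26.3% of 80 changed by 1 on the log2 scale. The changed genes were drawn only from those at higher levels, so these rates do not describe genes near the floor. Noise was drawn separately for each gene and library, whereas library 3 of each real group stood apart across genes. The rates may therefore not hold for these data.

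Named genes were the 12 largest differences in each direction that passed without overlap between groups and with a higher group averaging 10 or more, plus up to 4 members of each list that passed and the members of 6 short lists. Genes, lists and rules were chosen with earlier results of these data known. Alternatives covered the libraries in the fit, pseudocount, filter, scaling, fit options, replicate block and each library left out. Some named genes are not reported here.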

Additional observations from a re-analysis of the deposited data

Results flagged for a closer look

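For 16 named genes the difference between anemia and neonatal mice was unlike in CD45- and CD45+ cells by the interaction test in limma (CD45- difference minus CD45+ difference, adjusted over all tested genes). All 16 had also passed on the CD45- difference, which is part of the interaction. None of the 16 was weighed for a cause, and the groups of 3 libraries are too small for a test of single outlying libraries. In 7 genes the interaction was negative. It was -4.09 for Slc2a1, -3.32 for Per1, -2.74 for Txnip, -2.29 for Runx1t1, -1.41 for Kdm3a, -1.02 for Epas1 and -0.85 for Mest. Slc2a1 had log2 differences of -3.43 in CD45- and 0.65 in CD45+ cells, and Runx1t1 of -3.63 and -1.34. In 9 genes the interaction was positive. It was 5.07 for Stfa1, 3.85 for Clec4f, 3.78 for Tbxas1, 2.82 for Timd4, 2.70 for Marco, 2.07 for Cd5l, 2.04 for Cdh5, 2.03 for Igf2bp3 and 1.10 for Kdm5d. Tbxas1 was the only 1 of these that was higher in anemia CD45- cells (2.44) and below 0 in CD45+ cells (-1.34). The other 8 were lower in anemia in both fractions, with the larger difference in CD45+ cells, as for Marco (-4.13 in CD45- and -6.83 in CD45+ cells) and Igf2bp3 (-1.57 and -3.60). A gene near 0 in anemia in both fractions has differences set by its neonatal levels alone. Neonatal means in CD45- and CD45+ cells were 10.3 and 149 for Clec4f and 1.56 and 4.22 for Kdm5d, both near 0 in anemia. For Mest, also near 0 in anemia, they were 4.58 and 2.01.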

How the results depend on the processing

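Against 486 calls (106 higher, 380 lower, 776 for the interaction), the count was 223 (32, 191) with the 6 libraries alone, 289 (34, 255) with the 9 CD45- libraries, 810 (143, 667; interaction 349) with a pseudocount of 0.1, 273 (74, 199; interaction 1037) with 5, 793 (660 lower; interaction 1073) without a filter, 300 (67, 233; interaction 467) with a filter of 5, 782 (273 higher) with median-ratio scaling, and 217 were higher with quantile normalization. Leaving out 1 CD45- library gave 212 to 629 calls, 23 to 260 higher and 187 to 415 lower, with 41 to 93 listed genes past the threshold against 61. Leaving out 1 CD45+ library gave 391 to 488 calls, 74 to 106 higher, 315 to 382 lower, 59 to 61 listed genes and 429 to 800 interactions. Leaving out library 3 of both groups, added later, gave 895 calls (296, 599) and 108 listed genes. The cause was not tested, except that the stricter filter and the smaller fits test fewer genes. Of 68 named genes past the threshold, 44 were tested and passed without each library in turn, 6 of them higher and 38 lower, Lin28b, Peg10 and Dcn were not tested in part of these fits, and none changed sign under any alternative. With a pseudocount of 5, 13 of the 68 missed the threshold, among them Id3 (adjusted p = 0.0534), Stfa1 (0.0589), Camp (0.129) and Ltf (0.162), and with the 6 libraries alone 12 of 65 did, among them Plag1 (0.0737).

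Replicate numbers are shared between groups, but same-numbered anemia and neonatal CD45- libraries did not deviate together across genes (r = 0.0076, -0.171 and -0.0823). Library 3 nevertheless held the least haemoglobin RNA in all 6 groups. The numbers are not taken as pairs. Whether same-numbered CD45- and CD45+ libraries of a state belong together was not tested, and the interaction test took them as separate. With the replicate number as a block, 634 genes passed (178 higher, 456 lower), and 931 passed for the interaction. Without read counts, the precision of low values cannot be given: 163 lower genes had a neonatal mean under 5 and 34 higher genes an anemia mean under 5.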
